A study of Mus musculus with 4 samples.

Results

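The Slc genes measured here are 159 genes of the mouse solute carrier superfamily, out of 24148 genes in the count table and 9548 genes with enough counts to be tested. They were chosen by symbol (Slc followed by a digit) and by an average of 10 or more counts across the 4 libraries. The rule left out 8 symbols: Slc2a1, Slc2a5, Slc7a2, Slc7a11, Slc11a1, Slc11a2, Slc39a14 and Slc40a1. Of these, 6 reached the minimum count and 4 were called higher in LPS, so counts over the set described here leave out these 4 calls. The cells were primary mouse microglia given lipopolysaccharide (LPS, a glycolipid from the surface of Gram-negative bacteria) at 10 ng/ml for 4 h, with 2 libraries. Primary microglia labelled control, with no agent named, made up the other group of 2 libraries. The cells of both groups were detached from mixed glial cultures by shaking and then re-plated, and no sort for microglia is described. The labels give no strain, genotype or age. They leave unsaid whether the 2 libraries of a group stem from different cultures or mice, so every p-value reflects the spread among these libraries alone, which may be technical.

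The libraries held 5095630 and 4592474 counts in LPS and 3617176 and 4080568 counts in control. All Slc symbols together took 1.10% and 1.16% of the counts in LPS and 0.901% and 0.908% in control. These shares include the genes left out by the rule. Among them, Slc7a11 alone held 13934 and 17511 of the 56236 and 53160 Slc counts in LPS. In control it held 1400 and 2470 of 32584 and 37032. The higher share in LPS therefore cannot be read as a rise of the set described here. Levels below are CPM, read counts scaled to library size with TMM factors, a unit that rises with transcript length as well as with abundance. Of 13 microglia markers, 11 were tested and 0 were called by edgeR, with 0 higher and 5 lower at an unadjusted p under 0.05, where 8.51% of all tested genes were lower. Their summed level was 2583 and 2315 CPM in LPS and 3790 and 3200 CPM in control. Itgam, a defining marker, is listed at 0 in every library. Itgam has 2 RefSeq accessions in the table, as do Gjb6 and Atf4, which are also at 0 in all libraries. No marker of other glia was called, but their levels differed between replicate numbers. The summed level of 7 tested astrocyte markers was 128 and 434 CPM in LPS and 111 and 307 CPM in control, and that of 6 tested oligodendrocyte markers 336 and 24.6 CPM in LPS and 333 and 36.8 CPM in control. In such bulk samples, fewer cells of a type and less RNA per cell cannot be told apart.

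Solute carriers move small molecules across membranes by facilitated diffusion, exchange or coupling to an ion gradient, without hydrolysing ATP. They set the supply of amino acids, sugars, vitamins and metals at the plasma membrane, connect the cytosol with mitochondria, and load or empty lysosomes and the Golgi. In macrophages and microglia they are known for feeding metabolic changes during activation, for withholding metals from microbes, and for serving the lysosome, where engulfed material is broken down.

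Of the 159 genes, 154 encode carriers. The other 5 share only the start of the symbol: Slc9a3r1 encodes a scaffold protein, Slc4a1ap an adaptor, Slc7a6os and Slc36a1os lie beside a carrier gene, and Slc2a4rg-ps is a pseudogene. The table held 378 Slc symbols in all. Of the 213 under the minimum, 29 had no count and 78 were split over more than 1 accession, against 9 of the 159 genes kept. Slc3a2, the heavy chain shared by several amino acid exchangers, was under the minimum with 2 accessions. Just inside the minimum lay Slc7a3 and Slc28a2b with a mean of 10.0 counts, and just outside lay Slc26a7 and Slc5a5 with 9.75 counts. A mean of 10 counts was reached in the LPS libraries alone by 4 of the genes and in the control libraries alone by 9.

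After LPS, 7 Slc genes rose and 0 fell at an adjusted p under 0.05 (edgeR's quasi-likelihood test, adjusted over all 9548 genes). Among all genes tested, 6.55% were called higher and 1.79% lower. The Slc share called higher was 4.40%, in a set from which the rule had removed 4 called genes. With the left-out genes that reached the minimum count, 11 of 165 were called higher. The genes that rose were Slc15a3, Slc25a37, Slc16a10, Slc4a7, Slc30a1, Slc31a1 and Slc25a12, which carry histidine and peptides, iron, aromatic amino acids, bicarbonate, zinc, copper, and aspartate and glutamate.

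The median log2 fold change of LPS over control was -0.05 for the Slc genes and -0.05 for all genes tested. The log2 fold changes ran from -2.47 to 2.27, and 134 of the 159 genes lay within 2-fold. At an unadjusted p under 0.05, 17 Slc genes were higher and 13 lower, where this held for 12.8% and 8.51% of all genes. In 33 Slc genes both LPS libraries lay above both control libraries, and in 41 both lay below. The shares among all genes were 24.7% and 25.8%. DESeq2 called 11 Slc genes higher and 2 lower, against 7.77% and 2.33% of all genes, and limma-trend called 7 higher and 0 lower, against 6.81% and 1.93%.

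**Figure D1:**
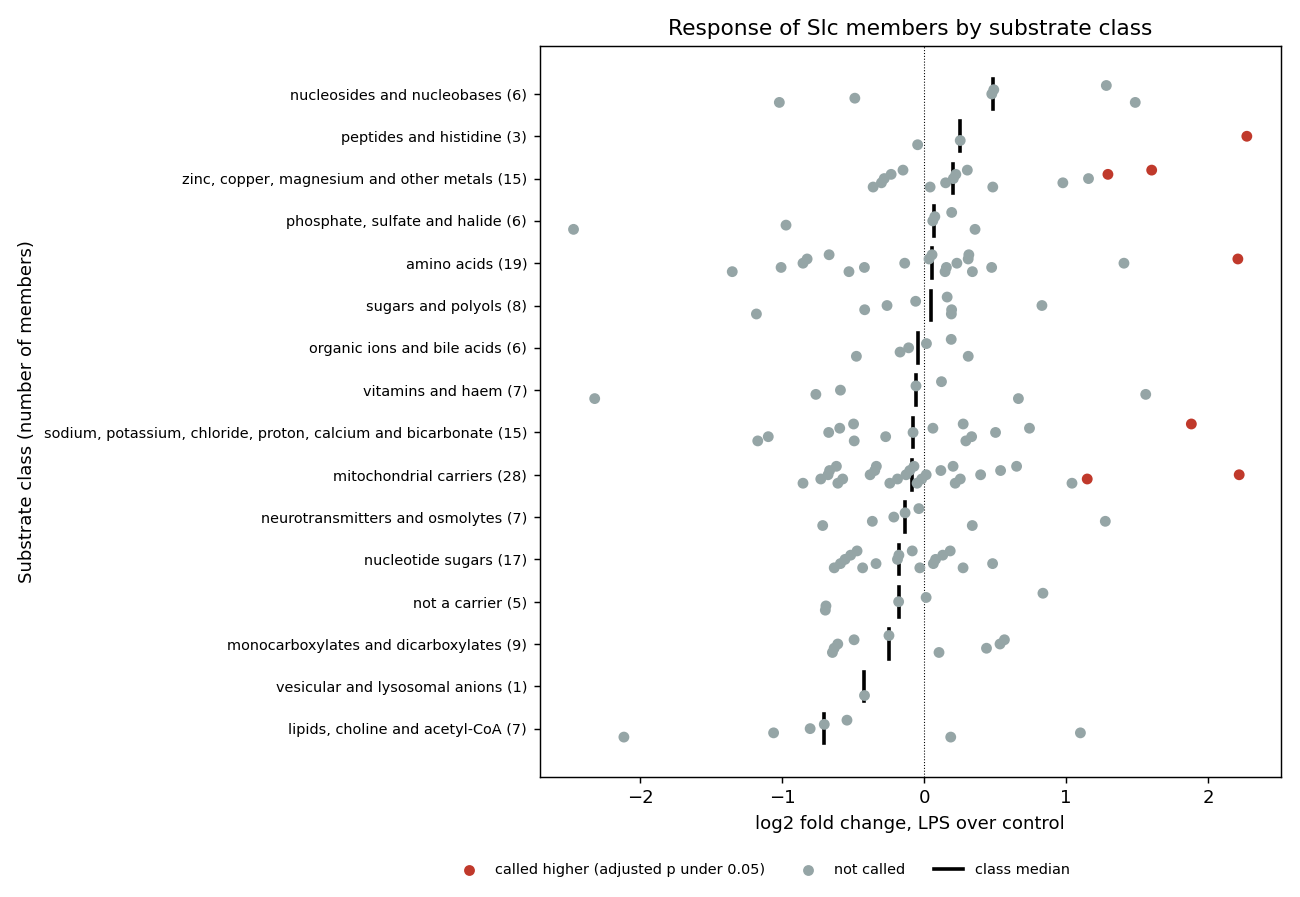
Log2 fold change of LPS over control (horizontal axis) for each of the 159 Slc genes, grouped by substrate class (vertical axis, number of genes in brackets). Points are genes, red points are the 7 called higher, and black bars are class medians. Most points lie within 1 log2 unit of 0, and the classes overlap.

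The choice of libraries, scaling and model mattered for how many genes were called. The largest change came with the replicate number as a block, as given in the last section. The labels do not say what that number stands for. Without LPS replicate 1 the test called 2 Slc genes higher and without LPS replicate 2 it called 4. Without control replicate 2 it called 6 higher and 6 lower. Total-count scaling, which shifted the overall median to -0.48 on the log2 scale, gave 5 higher and 7 lower. Among all 9548 genes it called 469 higher and 489 lower.

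Carriers of peptides and histidine held the steepest increase. Slc15a3 (chromosome 19, 10842544 to 10857915, GRCm38), a proton-coupled transporter of histidine and small peptides in the membrane of lysosomes, had 800 and 660 CPM in LPS, against 167 and 135 CPM in control. Both LPS libraries lay far above both controls. The mean was 730 ± 99.0 CPM in LPS and 151 ± 22.0 CPM in control (SD, n = 2 each), 4.83-fold higher (log2 fold change 2.27 ± 0.22, standard error; edgeR adjusted p = 0.0037). This call held in each of the 12 other settings without a replicate block, with log2 fold changes of 1.66 to 2.42.

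The close relative Slc15a4, which also carries histidine in endolysosomes and is known to be needed for signalling by endosomal Toll-like receptors, had 48.1 and 51.0 CPM in LPS, against 63.0 and 39.5 CPM in control. The LPS values lay between the controls (log2 fold change -0.05 ± 0.29, adjusted p = 0.96). Slc15a2, a peptide transporter of the plasma membrane, had 13.7 and 13.8 CPM in LPS, against 10.6 and 12.4 CPM in control. Its groups did not overlap but lay close together (0.25 ± 0.28, adjusted p = 0.70). The difference in response between Slc15a3 and its relatives was not tested.

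**Figure D2:**
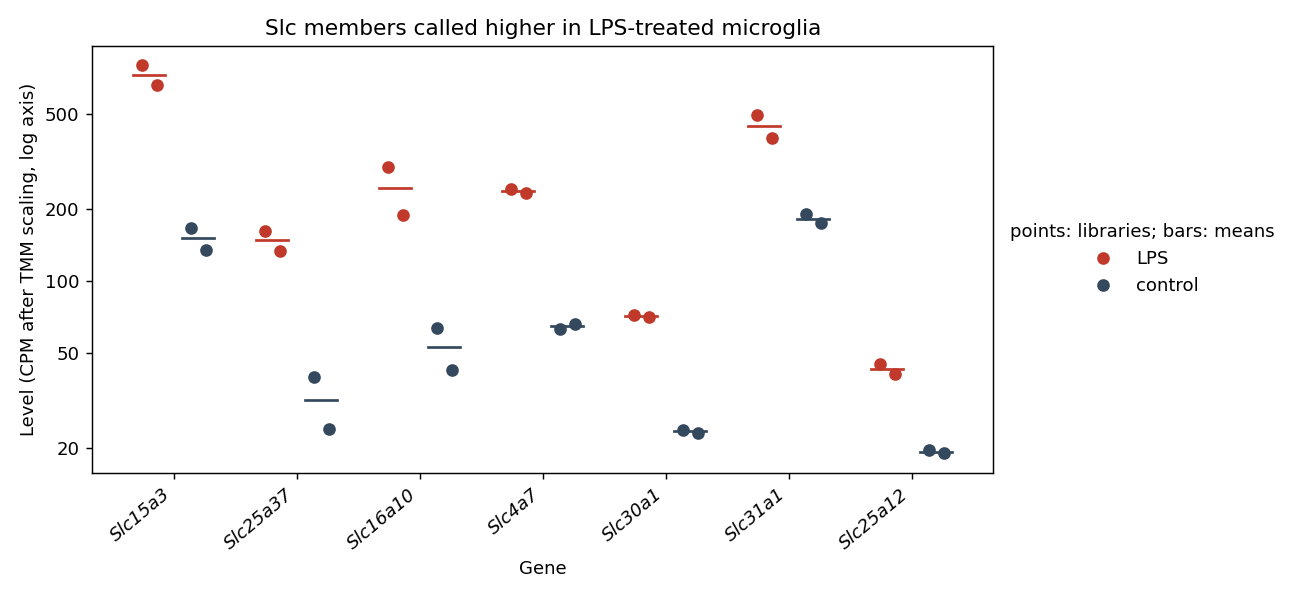
Level in CPM (vertical log axis) in each library for the 7 Slc genes called higher after LPS, ordered by fold change. Points are libraries and bars are group means, with LPS in red and control in dark blue. In all 7 genes both LPS points lie above both control points, which is part of the rule by which they were named.

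Carriers of zinc, copper, magnesium and other metals numbered 15, of which 2 rose, where 6.55% of all genes tested were called higher. The median log2 fold change was 0.21, and 10 of the 15 genes had a positive value, as did 46.4% of all genes tested. With 15 genes, nothing is read from these differences. Among metal carriers left out by the rule, Slc11a2 was called higher, while Slc11a1 and Slc40a1 were not called. Slc30a1 (chromosome 1, 191906697 to 191913248), the zinc exporter of the plasma membrane known as ZnT1, had 71.9 and 70.6 CPM in LPS, against 23.8 and 23.1 CPM in control. The libraries of each group were nearly equal, and the groups were far apart. The gene rose 3.04-fold (1.60 ± 0.21, edgeR adjusted p = 0.010). Leaving out LPS replicate 1 (1.59, adjusted p = 0.080) or LPS replicate 2 (1.62, adjusted p = 0.058) ended its call.

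Slc31a1 (chromosome 4, 62360583 to 62391769), the high-affinity copper importer Ctr1, had 498 and 397 CPM in LPS, against 190 and 174 CPM in control. Both LPS libraries were above the controls, and the gene rose 2.45-fold (1.29 ± 0.21, edgeR adjusted p = 0.019). Slc31a1 was no longer called when LPS replicate 1 (1.12, adjusted p = 0.13) or LPS replicate 2 (1.45, adjusted p = 0.056) was left out, with total-count scaling (0.86, adjusted p = 0.054) and after quantile normalization (0.71, adjusted p = 0.050).

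A further pair of metal carriers, chosen after their values were seen, lay close to the threshold. Slc41a2, a magnesium transporter, had 57.5 and 42.0 CPM in LPS, against 22.5 and 22.1 CPM in control (1.16 ± 0.26, adjusted p = 0.055). Slc39a1, the zinc importer Zip1, had 464 and 348 CPM in LPS, against 241 and 171 CPM in control (0.98 ± 0.26, adjusted p = 0.093). For both, the LPS libraries lay above the controls, and DESeq2 called them higher (adjusted p = 0.029 and 0.047). The other 11 genes of the class had log2 fold changes between -0.36 and 0.48. The zinc exporter family Slc30 had 4 tested genes with 1 called, and the importer family Slc39 had 8 with 0 called. At an unadjusted p under 0.05, 1 of the 8 was higher and 0 lower by edgeR.

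Sequences before a transcript start were searched for the called genes, which share a direction because they were chosen as called higher. RefSeq windows (GRCm38.p6) were matched for 5 of the 7 genes. Each window is placed on 1 transcript start, which need not be the outermost start of the gene: the windows of Slc16a10, Slc25a12, Slc30a1 and Slc31a1 reach 16, 26, 84 and 118 bases into the gene as its coordinates are given here, and that of Slc4a7 lies inside the gene with all 250 bases. The 250 bases before that transcript start were scanned on both strands for a metal response element core (TGCACNC or TGCGCNC), an interferon-stimulated response element, an AP-1 site (TGANTCA) and the NF-kB consensus, with matches allowed to overlap. Of 32851 windows of this length over all genes, 21.4% held the metal core, 2.98% the interferon element, 6.75% the AP-1 site and 7.25% the NF-kB consensus. Among the windows of the 5 genes there was 1 match, a metal core in Slc30a1, whose gene is a known target of the zinc-sensing factor Mtf1. The window of Slc30a1 is shown with this match in capitals. It lies on the minus strand and reads TGCACTC there. The end of the match farthest from the transcript start used lies 43 bases before that start. The match falls in the part of the window that is inside the gene's coordinates. The window of Slc16a10, in which no searched motif was found, is shown beside it as the called gene with an amino acid substrate.
Slc30a1, chr1:191906531-191906780, plus strand: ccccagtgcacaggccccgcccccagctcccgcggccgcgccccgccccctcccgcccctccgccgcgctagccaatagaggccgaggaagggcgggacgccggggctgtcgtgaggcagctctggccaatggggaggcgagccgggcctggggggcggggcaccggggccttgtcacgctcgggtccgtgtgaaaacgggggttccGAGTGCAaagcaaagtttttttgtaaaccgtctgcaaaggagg
Slc16a10, chr10:40142255-40142504, minus strand: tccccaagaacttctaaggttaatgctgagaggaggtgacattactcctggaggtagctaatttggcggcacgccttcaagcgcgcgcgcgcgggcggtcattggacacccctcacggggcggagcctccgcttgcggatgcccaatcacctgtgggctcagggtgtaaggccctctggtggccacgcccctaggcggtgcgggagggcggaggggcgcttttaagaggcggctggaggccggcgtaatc
A match is a description of these letters only.

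Mitochondrial carriers of the Slc25 family, which exchange metabolites and ions across the inner membrane, were the largest class with 28 genes. Of these, 2 rose and 0 fell, against 6.55% and 1.79% of all genes tested. At an unadjusted p under 0.05, 3 were higher and 2 lower. The median log2 fold change was -0.09, and 17 of 28 values were negative. Slc25a37 (chromosome 14, 69241848 to 69285544), the iron importer mitoferrin 1, had 162 and 134 CPM in LPS, against 39.7 and 24.0 CPM in control. The groups were well separated, and the gene rose 4.66-fold (2.22 ± 0.31, edgeR adjusted p = 0.012). Leaving out LPS replicate 1 ended the call (2.07, adjusted p = 0.056).

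Slc25a28, the related iron carrier mitoferrin 2, had 5.29 and 4.83 CPM in LPS, against 5.30 and 3.49 CPM in control. The groups overlapped (0.22 ± 0.41, adjusted p = 0.84). Slc25a12 (chromosome 2, 71274270 to 71367781), the aspartate and glutamate carrier of the malate-aspartate shuttle, had 45.0 and 40.6 CPM in LPS, against 19.6 and 19.0 CPM in control. It rose 2.22-fold (1.15 ± 0.23, edgeR adjusted p = 0.038), with little spread in either group. Its call was the least stable of the 7: it was lost without control replicate 1 (1.16, adjusted p = 0.11), control replicate 2 (1.10, 0.11), LPS replicate 1 (1.07, 0.27) or LPS replicate 2 (1.22, 0.15), with total-count scaling (0.71, 0.15) and after quantile normalization (0.99, 0.057).

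The ADP/ATP exchanger Slc25a5, had 235 and 298 CPM in LPS, against 243 and 296 CPM in control (-0.02 ± 0.22, adjusted p = 0.98). The lowest log2 fold change of the family was that of Slc25a16, a carrier linked to coenzyme A, at -0.85 ± 0.24 (18.0 and 21.5 CPM in LPS, against 33.9 and 37.6 CPM in control; adjusted p = 0.11). The summed level of the 28 genes was 1524 and 1435 CPM in LPS and 1552 and 1389 CPM in control.

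Among 19 carriers of amino acids, 1 rose, where 6.55% of all genes tested were called higher. The median log2 fold change was 0.06. The amino acid carriers Slc7a2 and Slc7a11, left out by the rule, were both called higher, with log2 fold changes of 4.07 and 3.16. Slc16a10 (chromosome 10, 40033532 to 40142270), which carries aromatic amino acids and thyroid hormones by facilitated diffusion, had 300 and 188 CPM in LPS, against 63.3 and 42.4 CPM in control. Both LPS libraries lay above the controls, and the gene rose 4.63-fold (2.21 ± 0.33, edgeR adjusted p = 0.016). Leaving out LPS replicate 1 ended its call (1.84, adjusted p = 0.059). Slc16a10 has 2 accessions in the table, so its level is uncertain. Slc7a8, an exchanger of neutral amino acids chosen after its values were seen, had 318 and 156 CPM in LPS, against 115 and 63.4 CPM in control. The groups did not overlap, but the 2 libraries of each group were far apart (1.41 ± 0.45, adjusted p = 0.14; 0.021 without control replicate 1).

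Slc38a2, a sodium-coupled importer of small neutral amino acids, had 224 and 206 CPM in LPS, against 423 and 262 CPM in control (-0.67 ± 0.27, adjusted p = 0.24). It was called lower with total-count scaling (adjusted p = 0.035), after quantile normalization (0.039) and without control replicate 2 (0.044). Slc7a5, an exchanger of large neutral amino acids, had 28.4 and 29.5 CPM in LPS, against 29.1 and 20.3 CPM in control. Slc7a1, the importer of arginine and lysine, had 53.9 and 45.2 CPM in LPS, against 46.3 and 33.7 CPM in control. In both genes the groups overlapped (adjusted p = 0.72 for Slc7a5 and 0.59 for Slc7a1), and the sign of both differences turned under total-count scaling (-0.18 and -0.11). Slc1a5, an exchanger of glutamine, had 4.09 and 1.93 CPM in LPS, against 11.7 and 4.07 CPM in control (-1.35 ± 0.67, adjusted p = 0.34). Of 22 genes for the amino acid response and amino acid synthesis, such as the asparagine synthetase Asns, 12 were tested and 0 were called by edgeR, with 0 higher and 1 lower at an unadjusted p under 0.05. Another 5 of the 22, among them Atf4, are at 0 in all libraries.

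Carriers of sodium, potassium, chloride, protons, calcium and bicarbonate numbered 15, and 1 rose, where 6.55% of all genes tested were called higher. Slc4a7 (chromosome 14, 14703011 to 14799944), a sodium-bicarbonate cotransporter that raises the pH of the cytosol, had 243 and 233 CPM in LPS, against 63.0 and 66.3 CPM in control. Each group was tight, and the gene rose 3.69-fold (1.88 ± 0.19, edgeR adjusted p = 0.0043). As for Slc15a3, the call held in each of the 12 other settings without a replicate block, with log2 fold changes of 1.44 to 1.99. The other 14 genes lay between -1.17 and 0.74. Slc12a2, the sodium, potassium and chloride cotransporter NKCC1, had 136 and 198 CPM in LPS, against 133 and 140 CPM in control (0.29 ± 0.25, adjusted p = 0.59). The scaffold gene Slc9a3r1, whose product binds sodium-proton exchangers, had 80.6 and 56.3 CPM in LPS, against 43.4 and 33.3 CPM in control (0.84 ± 0.28, adjusted p = 0.16).

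Carriers of vitamins and haem spread widely, with 0 of 7 called by edgeR and 2 higher and 1 lower at an unadjusted p under 0.05. Slc23a2, the sodium-dependent importer of ascorbate, had 706 and 425 CPM in LPS, against 236 and 148 CPM in control. The groups did not overlap, and the log2 fold change was 1.56 ± 0.35 (adjusted p = 0.057). It was called without control replicate 1 (1.92, adjusted p = 0.0069) and by DESeq2 (1.57, adjusted p = 0.0017). Slc48a1, which carries haem out of lysosomes, had 413 and 339 CPM in LPS, against 262 and 213 CPM in control (0.66 ± 0.21, adjusted p = 0.15). Slc46a3, a carrier of the lysosomal membrane, had 3.37 and 2.17 CPM in LPS, against 19.9 and 8.33 CPM in control. Its counts were 14 and 9 in LPS and 75 and 43 in control, so that both LPS libraries were low (-2.32 ± 0.56, adjusted p = 0.072). It was called lower without control replicate 2 (-2.86, adjusted p = 0.0070), by DESeq2 (-2.33, adjusted p = 0.014) and with total-count scaling (-2.72, adjusted p = 0.022).

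The phosphate, sulfate and halide class had 6 genes and 0 calls by edgeR, with 0 higher and 2 lower at an unadjusted p under 0.05. It held the lowest log2 fold change of all Slc genes. Slc26a11, a sulfate and chloride carrier known from lysosomes, had 7.46 and 4.11 CPM in LPS, against 47.1 and 17.6 CPM in control. The controls were far apart from each other, and both LPS libraries lay below them (-2.47 ± 0.58, adjusted p = 0.067). It was called lower without control replicate 2 (-3.05, adjusted p = 0.0014), by DESeq2 (-2.47, adjusted p = 0.0014), with total-count scaling (-2.86, adjusted p = 0.017) and among genes with a mean of at least 50 counts. Slc20a1, a phosphate importer with 2 accessions, had 21.2 and 42.8 CPM in LPS, against 23.3 and 37.2 CPM in control (0.07 ± 0.42, adjusted p = 0.95).

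Of 7 carriers of lipids, choline and acetyl-CoA, 5 had negative log2 fold changes, with a median of -0.70, and 0 were called by edgeR. At an unadjusted p under 0.05, 0 were higher and 2 lower. Slc27a3, Slc27a6 and Slc44a5, all with negative values, averaged under 10 counts in LPS and entered the set through their control counts. Slc27a3 is itself the median, so nothing is read from the lean of the class. Slc27a1, a fatty acid transporter that also activates fatty acids, had 44.5 and 33.1 CPM in LPS, against 96.1 and 66.1 CPM in control (-1.06 ± 0.29, adjusted p = 0.098). It was called lower without control replicate 2 (-1.34, adjusted p = 0.028), with total-count scaling (-1.48, 0.017) and after quantile normalization (-1.30, 0.039). Slc27a6, of the same family, had 3 and 6 counts in LPS and 26 and 15 in control (adjusted p = 0.14). Slc44a1, a choline importer with 2 accessions, had 85.9 and 49.1 CPM in LPS, against 48.5 and 14.9 CPM in control. Its groups nearly touched (1.10 ± 0.59, adjusted p = 0.38), and it was called higher without control replicate 1 (2.16, adjusted p = 0.012).

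Nucleoside and nucleobase carriers (6 genes) had the highest class median, 0.48, on low levels and with 0 calls by edgeR, and at an unadjusted p under 0.05 with 1 higher and 0 lower. Slc28a2, a concentrative importer of purine nucleosides, had 27 and 18 counts in LPS and 8 and 9 in control (1.49 ± 0.45, adjusted p = 0.13). Its neighbour and paralog Slc28a2b had 15 and 13 counts in LPS and 7 and 5 in control (1.28 ± 0.52, adjusted p = 0.24). How reads were shared between these neighbours is not known, so both values are uncertain. In both genes the control counts averaged under the minimum of 10, so they entered the set through their LPS counts. Their log2 fold changes are the largest of the class, so nothing is read from its median. Slc29a3, a nucleoside carrier of lysosomes, had 40.2 and 21.0 CPM in LPS, against 90.6 and 34.1 CPM in control. Its groups overlapped (-1.02 ± 0.54, adjusted p = 0.38).

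Nucleotide sugar carriers of the Slc35 family, which supply glycosylation in the Golgi and include members of unknown substrate, kept within a narrow range. All 17 lay between -0.63 and 0.48, with a median of -0.18 and 0 calls, and 0 were higher and 1 lower at an unadjusted p under 0.05 by edgeR. Slc35a3, the carrier of UDP-N-acetylglucosamine, had 143 and 137 CPM in LPS, against 87.9 and 112 CPM in control (0.48 ± 0.21, adjusted p = 0.28). Slc35f6 had 45.2 and 44.7 CPM in LPS, against 69.7 and 69.9 CPM in control, with very little spread (-0.63 ± 0.20, adjusted p = 0.14).

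Sugar and polyol carriers (8 genes) had a median of 0.05 and 0 calls by edgeR. At an unadjusted p under 0.05, 1 was higher and 1 lower. The glucose transporter Slc2a1, left out by the rule, was called higher. Slc37a3, of the sugar-phosphate exchanger family, had 29.8 and 26.6 CPM in LPS, against 18.3 and 13.6 CPM in control (0.83 ± 0.27, adjusted p = 0.15). Slc2a8, an intracellular hexose transporter, had 3.61 and 3.38 CPM in LPS, against 10.1 and 6.01 CPM in control (-1.18 ± 0.43, adjusted p = 0.19). Among 9 carriers of monocarboxylates and dicarboxylates 0 were called by edgeR, and 0 reached an unadjusted p under 0.05. Slc16a1, the lactate and pyruvate carrier MCT1, had 68.3 and 112 CPM in LPS, against 58.5 and 65.7 CPM in control (0.53 ± 0.29, adjusted p = 0.39).

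Neurotransmitter and osmolyte carriers (7 genes) had a median of -0.13 and 0 calls by edgeR, with 1 higher and 0 lower at an unadjusted p under 0.05. Slc6a12, a carrier of betaine and GABA, had 42 and 36 counts in LPS and 17 and 17 in control (1.28 ± 0.37, adjusted p = 0.12). Slc6a6, the taurine importer, had 587 and 268 CPM in LPS, against 786 and 316 CPM in control, so the libraries of 1 group differed more than the groups (-0.37 ± 0.54, adjusted p = 0.79). Within each replicate number its LPS value was below its control value. The 6 organic ion carriers lay between -0.48 and 0.31 with 0 calls by edgeR and 0 at an unadjusted p under 0.05. Slc22a23, an orphan member of the organic ion family, had 55.1 and 29.0 CPM in LPS, against 52.2 and 21.9 CPM in control (0.19 ± 0.50, adjusted p = 0.89). Slc17a8, a vesicular glutamate transporter alone in its class, had 6.25 and 3.62 CPM in LPS, against 7.95 and 5.43 CPM in control.

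Slc genes known from lysosomes and late endosomes were set apart after their values had been seen, so this grouping is a description. Of 16 such genes listed, 14 belong to the set. Apart from Slc15a3, 10 of the 13 had negative log2 fold changes, with a median of -0.53; among all tested genes 5117 of 9548 were negative, with a median of -0.05. Their summed level was 740 and 582 CPM in LPS and 831 and 528 CPM in control, so the groups overlapped in sum. In 5 of the 13, Slc7a14, Slc38a7, Slc38a9, Slc46a3 and Slc26a11, both LPS libraries lay below both controls, and in 1, Slc48a1, both lay above. The shares among all tested genes were 25.8% below and 24.7% above, and with members chosen after their values were seen nothing is read from the difference. Slc38a9, the lysosomal arginine sensor of the mTORC1 pathway, had 13.5 and 12.8 CPM in LPS, against 21.7 and 25.8 CPM in control (-0.85 ± 0.26, adjusted p = 0.13). Slc38a7, which exports glutamine from lysosomes, had 50.5 and 51.5 CPM in LPS, against 90.6 and 57.0 CPM in control (-0.53 ± 0.28, adjusted p = 0.37).

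Slc36a1, a proton-coupled exporter of small amino acids, had 43.3 and 21.0 CPM in LPS, against 98.8 and 31.2 CPM in control. Its groups overlapped (-1.01 ± 0.62, adjusted p = 0.44), and it had a value of 0.03 without control replicate 1 and of -1.65 (adjusted p = 0.028) without control replicate 2. Rragd, a GTPase that joins lysosomal amino acid sensing to mTORC1, was the 1 called gene of 13 tested partners of Slc carriers. It had 30.1 and 45.7 CPM in LPS, against 99.3 and 94.6 CPM in control, and fell by 1.36 ± 0.27 on the log2 scale (edgeR adjusted p = 0.039). Among all genes tested, 1.79% were called lower.

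**Figure D3:**
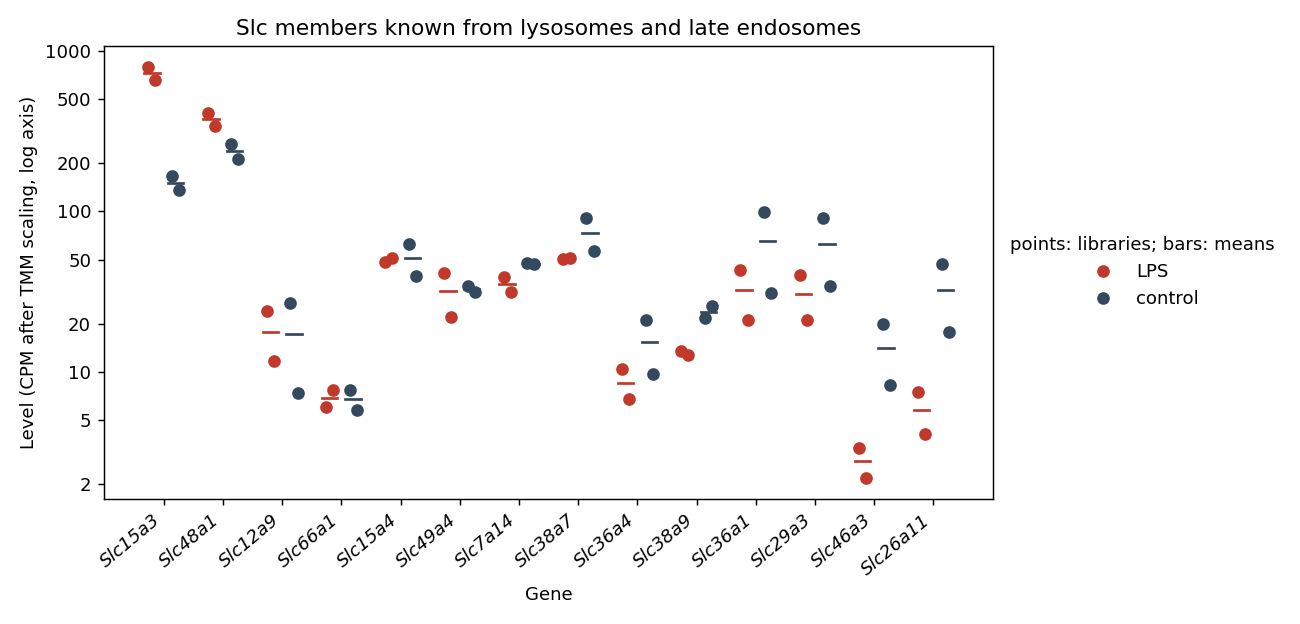
Level in CPM (vertical log axis) in each library for the 14 Slc genes known from lysosomes and late endosomes, ordered by fold change. Points are libraries and bars are group means, with LPS in red and control in dark blue. Slc15a3 stands apart at the left, and in Slc46a3 and Slc26a11 at the right both LPS points lie below both control points, while the points of Slc36a1 and Slc29a3 overlap between groups.

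Several Slc genes differed more between libraries of 1 group than between treatments. In 7 of the 159 genes replicate 2 was at least 2-fold above replicate 1 in both groups, and in 9 it was at least 2-fold below. Slc39a12, a zinc importer, had 3.13 and 15.9 CPM in LPS replicates 1 and 2, against 2.38 and 19.6 CPM in control replicates 1 and 2. Slc2a12, a glucose transporter, had 1.20 and 11.4 CPM in LPS, against 2.12 and 10.7 CPM in control. Slc16a9, a carnitine carrier, had 2.41 and 20.1 CPM in LPS, against 3.44 and 12.8 CPM in control. The myo-inositol importer Slc5a3 had 51.2 and 157 CPM in LPS, against 60.4 and 121 CPM in control. In these 4 genes both libraries numbered 2 were high.

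Slc6a6 and Slc36a1, whose values are given above, ran the other way and were high in the libraries numbered 1. Across the 159 genes, the log2 ratio of replicate 2 over replicate 1 in LPS and that in control had a Pearson r of 0.69 and a Spearman rho of 0.63, over genes that share the same 4 libraries. Summed astrocyte markers were higher, and summed oligodendrocyte markers lower, in the libraries numbered 2, as given at the start. Their part in these differences was not tested.

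**Figure D4:**
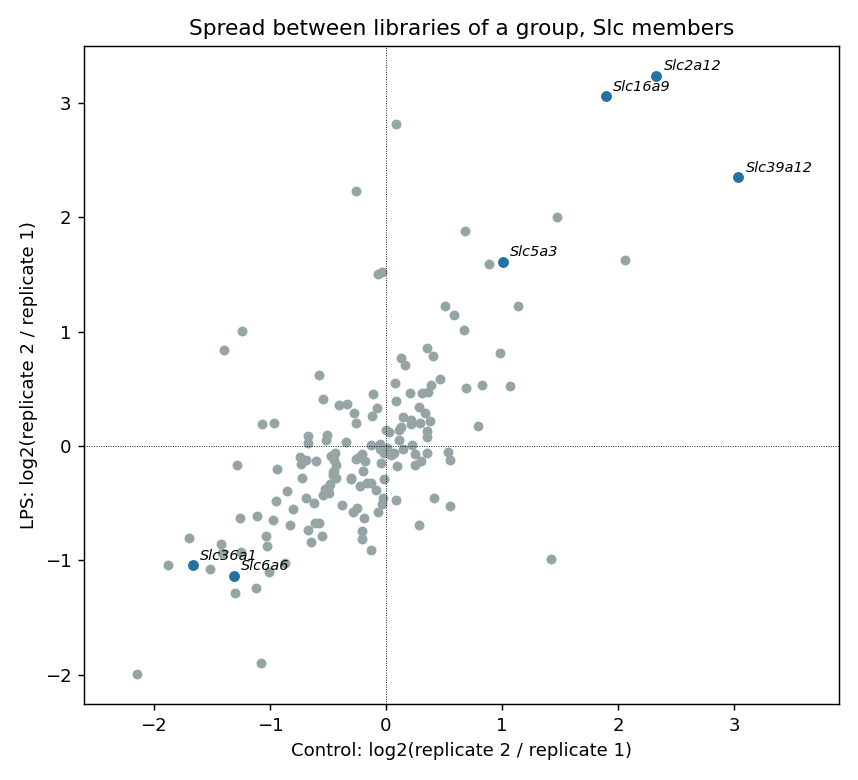
Log2 ratio of replicate 2 over replicate 1 among control libraries (horizontal axis) and among LPS libraries (vertical axis) for the 159 Slc genes, with each point a gene and 6 genes named in blue. Points spread along the diagonal, with Slc36a1 and Slc6a6 toward the lower left and Slc2a12, Slc16a9 and Slc39a12 at the upper right.

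Carriers of the superfamily whose symbol does not begin with Slc were read beside them. Of 36 listed, 26 were tested, 1 was called higher and 2 lower, with a median log2 fold change of -0.04. Among all genes tested, 6.55% were called higher and 1.79% lower, so nothing is read from counts this small. Slco3a1, an organic anion transporter, had 20.9 and 17.2 CPM in LPS, against 1.85 and 3.68 CPM in control, and rose by 2.74 ± 0.42 on the log2 scale (edgeR adjusted p = 0.016). It has 2 accessions, so its level is uncertain. Flvcr1, a transporter of haem and choline, had 35.4 and 28.0 CPM in LPS, against 126 and 73.0 CPM in control, and fell by 1.65 ± 0.33 (edgeR adjusted p = 0.040). Mfsd12, needed for the import of cysteine into lysosomes, had 30.5 and 25.4 CPM in LPS, against 80.5 and 63.4 CPM in control, and fell by 1.36 ± 0.24 (edgeR adjusted p = 0.028).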

How the data were processed

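Total RNA of primary mouse microglia (2 LPS libraries, 2 control libraries) was depleted of ribosomal RNA and sequenced with a directional kit, per the labels' protocols. The authors deposited whole-number counts per RefSeq accession, in a table whose name calls them normalized; library totals differ, so the values were used as counts. Per the submitters' processing notes the tools were CASAVA 1.8.2, Trimmomatic 0.33, TopHat2 2.0.10, Cufflinks 2.2.1 and HTSeq 0.6.1, with build mm10; for the annotation and the strand setting of the counting, none is stated in these sources. Of 32915 accessions, 32487 were named from a RefSeq table (GRCm38.p6) and 187 from GENCODE, and 241 were unmatched. Counts were summed per gene. Genes averaging 10 or more counts were tested with edgeR 4.0.16 (quasi-likelihood, TMM, Benjamini-Hochberg adjustment over all tested genes, threshold 0.05) in R 4.3.3. Libraries of a group differed by more than counting noise (a chi-square over its degrees of freedom of 25.4 in LPS and 34.3 in control), and the common biological coefficient of variation was 0.283. Alternatives used DESeq2 1.42.0 and limma 3.58.1, other scalings and filters, each replicate left out, a replicate block, and genes with 1 accession only. The edgeR fit alone was tested on simulated counts with known changes, and the outcome is not given here. Named were called genes whose groups did not overlap (up to 15 a direction) and the gene with the highest mean CPM over the 4 libraries in each class; other genes named were chosen after their values were seen. The members and lists were chosen with earlier results of these data known. Standard errors are those of the edgeR log2 fold change.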

Additional observations from a re-analysis of the deposited data

How the results depend on the processing

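The 7 genes called higher kept a positive log2 fold change in every setting in which they were tested. Slc genes called higher and lower were 11 and 2 with DESeq2, 5 and 7 with total-count scaling, and 5 and 2 after quantile normalization. Among all 9548 genes the counts were, in the same order, 742 and 222, 469 and 489, and 525 and 326. Without a filter, against 835 and 205 of 21352 genes, 11 and 2 Slc genes were called. Against 564 and 237 of all 5769 genes with a mean of at least 50 counts, 7 and 1 of 97 Slc genes were called. Leaving out 1 library gave 2 to 10 higher and 0 to 6 lower. With the replicate number as a block 22 Slc genes were called higher, including all 7, and 27 lower. The 27 include Slc6a6, Slc36a1, Slc29a3, Slc1a5, Slc38a9 and Slc38a7, which the main fit did not call. Over all 9548 genes the block gave 1676 higher and 1258 lower. Deviations from the group means of libraries numbered 1 correlated between the groups (r = 0.66 over 9548 genes), but the labels do not say what the number stands for, and there are 2 pairs. Over all settings 552 values kept direction and side of the threshold, 58 passed it newly, 14 no longer passed it and 48 changed sign, none of them for a called gene; the cause was not tested. Total-count scaling turned Slc22a23 (-0.21), Slc20a1 (-0.37), Slc12a2 (-0.13), Slc5a3 (-0.25), Slc15a2 (-0.19), Slc25a28 (-0.20), Slc7a5 (-0.18), Slc7a1 (-0.11), Slc16a9 (-0.0087), Slc66a1 (-0.38) and Slc12a9 (-0.33). Quantile normalization turned Slc20a1 (-0.11), Slc12a2 (-0.20), Slc5a3 (-0.27) and Slc39a12 (0.049), and limma-trend turned Slc39a12 (0.024). Without a filter Slc25a5 (0.090), Slc15a4 (0.061), Slc2a12 (0.052) and Slc49a4 (0.044) turned, and with the stricter filter Slc20a1 (-0.028) and Slc12a9 (-0.032). Leaving out 1 library gave -0.20 to 0.14 for Slc25a5, -0.35 to 0.92 for Slc22a23, -1.83 to 1.97 for Slc39a12, -2.42 to 1.54 for Slc2a12, -0.64 to 1.25 for Slc12a9, -1.04 to 0.42 for Slc6a6, -0.52 to 0.49 for Slc20a1, -0.0068 to 0.54 for Slc12a2, -0.83 to 0.79 for Slc5a3, -1.77 to 1.69 for Slc16a9, -0.18 to 0.23 for Slc66a1, -0.58 to 0.33 for Slc49a4, -1.65 to 0.026 for Slc36a1, -0.37 to 0.32 for Slc15a4, -0.092 to 0.52 for Slc25a28 and -0.036 to 0.50 for Slc7a5. With 1 library left in a group, it is assumed to vary like the other group.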
